A study of Mus musculus with 9 samples.

Results

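The miR-30 family was followed in mouse liver through 10 mature microRNA (miRNA) rows of a table of 946. The members were taken by name: 5 mature forms from the 5p arm of the hairpin (mmu-miR-30a-5p, mmu-miR-30b-5p, mmu-miR-30c-5p, mmu-miR-30d-5p and mmu-miR-30e-5p) and 5 from the 3p arm (mmu-miR-30a-3p, mmu-miR-30c-1-3p, mmu-miR-30c-2-3p, mmu-miR-30d-3p and mmu-miR-30e-3p). The prefix mmu, for mouse, is left out below. Small RNA was sequenced from livers of wild-type C57 BL6 mice aged 8 weeks, in 3 groups of 3 libraries. Control mice were given saline. APAP mice were given 500 mg/kg acetaminophen (APAP), which injures the liver at high dose, into the peritoneum. The dmPGE2+APAP mice were given 300 µg/kg dmPGE2, an analog of prostaglandin E2, by the same route 1 h before that dose of APAP. Livers were collected 6 h after APAP. No group received dmPGE2 alone, so its effect can be read only on top of APAP.

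A miRNA hairpin is cut into a short duplex, of which the guide strand is kept in an Argonaute protein and pairs with messenger RNAs through its seed, while the passenger strand is mostly degraded. In the miR-30 family the 5p arm is the usual guide, and its members share a seed, so they can recognise many of the same messenger RNAs. The family is abundant in epithelial tissues and liver, where miR-30a is known to repress the autophagy gene Becn1 and miR-30c the lipoprotein assembly gene Mttp.

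The sequences below show which members share a seed and which are nearly identical over their whole length. They are mature sequences from RefSeq on GRCm38.p6, found for 7 of the 10 members, written 5′ to 3′ with bases 2 to 8, the seed, in capitals. The first 3 are guides.
miR-30a-5p: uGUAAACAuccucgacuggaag
miR-30c-5p: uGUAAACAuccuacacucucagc
miR-30e-5p: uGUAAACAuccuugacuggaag
miR-30a-3p: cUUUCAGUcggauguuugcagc
miR-30e-3p: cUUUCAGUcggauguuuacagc
miR-30c-1-3p: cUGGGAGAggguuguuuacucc
miR-30c-2-3p: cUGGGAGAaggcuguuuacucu

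These guides carried a single seed, whereas the passengers fell into a pair of seed groups, miR-30a-3p with miR-30e-3p and miR-30c-1-3p with miR-30c-2-3p. Counted from 1 at the 5′ end, miR-30e-5p differed from miR-30a-5p by 1 substitution (C13U), and miR-30e-3p differed from miR-30a-3p by 1 (G18A). The miR-30c-2-3p sequence differed from miR-30c-1-3p by 3 (G9A, U12C and C22U). How reads that fit both miR-30a and miR-30e were assigned is not given in the sources used here, so the split between these near-identical partners is uncertain.

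The hairpins lie in pairs on the genome. Mir30a (chr1:23272269-23272339) and Mir30c-2 (chr1:23291701-23291784) are both on the plus strand of chromosome 1, 19361 bp apart, and overlap no other annotated gene. Mir30c-1 (chr4:120769534-120769622) and Mir30e (chr4:120772606-120772697) are on the minus strand of chromosome 4, 2983 bp apart, and lie within Nfyc, the gene of a subunit of the CCAAT-binding factor NF-Y. Mature miR-30c-5p is made from both Mir30c-1 and Mir30c-2, so its reads cannot be assigned to a hairpin, and its arm ratio below is given against each passenger separately.

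Control libraries held 7590735 to 10483460 reads. The range was 3523998 to 7563788 for APAP and 1038799 to 6994952 for dmPGE2+APAP. The 3 shallowest were APAP replicate 3, dmPGE2+APAP replicate 2 and dmPGE2+APAP replicate 3. The liver label was checked against 5 hepatocyte miRNAs, led by miR-122-5p and miR-192-5p: all 5 were present in every group, at a summed 256820 to 417720 CPM (Control), 241610 to 278670 (APAP) and 277400 to 288050 (dmPGE2+APAP), and 0 passed the test in any comparison. CPM here is the read count scaled to a common library size with edgeR's trimmed-mean (TMM) correction. The 4 red blood cell miRNAs summed to 431 to 543 CPM (Control), 731 to 1398 (APAP) and 352 to 379 (dmPGE2+APAP), and the 4 myeloid miRNAs to 124 to 233, 177 to 319 and 153 to 238. Of these, 1 red blood cell miRNA passed the test, lower in dmPGE2+APAP than in APAP, and no marker of either list was at 0 in any group. Of the lymphocyte, endothelial, mesenchymal, epithelial and muscle lists 0 members passed in any comparison. The 4 muscle miRNAs summed to 482 to 2700 CPM (Control), 315 to 903 (APAP) and 341 to 721 (dmPGE2+APAP), with none at 0 and median log2 differences from Control of -0.96 (APAP) and -1.13 (dmPGE2+APAP). The part of other cell types in the miR-30 values was not tested. In bulk tissue, fewer cells of a type and less miRNA per cell cannot be told apart.

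The miR-30 family took 2.41% to 4.36% of a library's reads (mean 3.04% ± 0.629, SD, n = 9), and nearly all of that came from guides (2.98% ± 0.628, against 0.0634% ± 0.00889 for passengers). All 10 members passed the filter on low counts. The most abundant, mmu-miR-30a-5p, averaged 18372 ± 4646 CPM (SD, n = 9) and ranked 8 among all rows. It was followed by miR-30d-5p at 6910.5 ± 1850 CPM and miR-30e-5p at 3179 ± 945 CPM. Below these stood miR-30c-5p at 1392 ± 367 CPM. The fifth guide, miR-30b-5p, was far lower at 264 ± 77.3 CPM. The passengers ran from miR-30a-3p at 337 ± 31.1 CPM through miR-30c-2-3p at 155 ± 29.1, miR-30e-3p at 110 ± 20.0 and miR-30d-3p at 20.3 ± 4.44 to miR-30c-1-3p at 9.12 ± 1.94.

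The order of levels was nearly fixed. Each member stood above the next lower in 9 of 9 libraries, with 2 exceptions. The miR-30a-3p level exceeded that of miR-30b-5p in 8 libraries (0.739 to 2.35 times). The miR-30b-5p level exceeded that of miR-30c-2-3p in 8 (0.893 to 3.04 times). The difference within these pairs was not tested. The miR-30c-2-3p level was 1.09 to 2.05 times that of miR-30e-3p within a library. The ligation steps of library making can favour some sequences, so a level set against that of another miRNA holds for these libraries only.

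**Figure D1:**
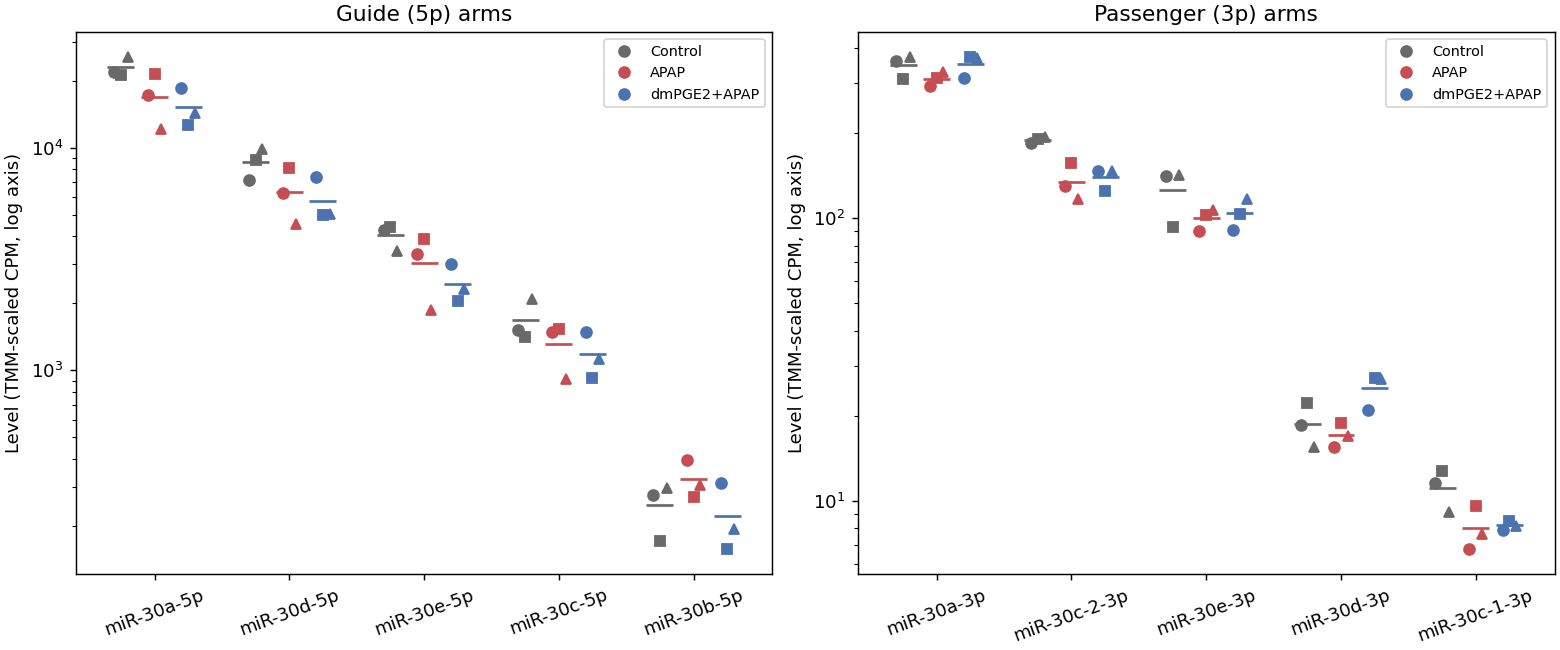
Level of each miR-30 guide (left) and passenger (right) in TMM-scaled CPM on a log axis. Grey is Control, red APAP and blue dmPGE2+APAP, circles, squares and triangles are replicates 1, 2 and 3, and bars are means of 3 libraries. The members span from 6.77 CPM to 25639 CPM.

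Within the guides the division of reads was steady. Reads of miR-30a-5p made up 59.0% to 62.3% of all guide reads, with group means (± SD, n = 3 each) of 61.1% ± 1.80 for Control, 60.7% ± 0.730 for APAP and 61.2% ± 0.885 for dmPGE2+APAP. The ratio of miR-30a-5p to miR-30e-5p reads varied more, from 4.84 in Control replicate 2 to 7.47 in Control replicate 3. The ratio of miR-30d-5p to miR-30b-5p reads ran from 14.9 in APAP replicate 3 to 51.6 in Control replicate 2.

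**Figure D2:**
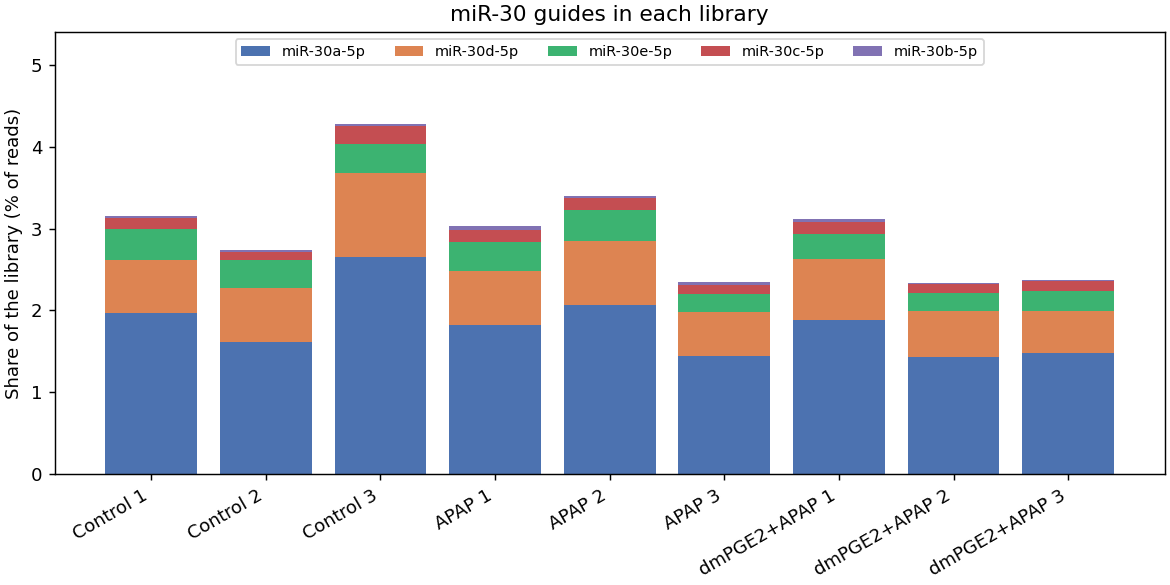
Share of each library's reads taken by the 5 miR-30 guides, stacked, in percent of all reads of the library. Bars are single libraries, and their heights run from 2.34% in dmPGE2+APAP replicate 2 to 4.28% in Control replicate 3, with miR-30a-5p as the largest segment throughout.

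The first comparison asks what APAP alone did to the family at 6 h. No member passed the test: the adjusted p (edgeR's quasi-likelihood test, Benjamini-Hochberg over the 360 miRNAs tested) lay between 0.351 and 0.892 for the 10 members, and 0.833% of all miRNAs passed. DESeq2 and limma-voom also called 0 members. Members lay mostly below Control: 9 of 10 had a log2 difference below 0, with a median of -0.38, against 55.3% of all miRNAs and a median of -0.05. Their unadjusted p was under 0.05 for 1 member, which was lower. Among all miRNAs 3.33% were lower at that p.

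The most abundant guide, miR-30a-5p, measured 21920, 21357 and 25639 CPM in Control replicates 1, 2 and 3 and 17278, 21388 and 12166 CPM in APAP. The groups overlapped, since APAP replicate 2 was at the level of Control. Its log2 difference was -0.44 (SE 0.22, adjusted p = 0.519 by edgeR). The near neighbours gave like values: miR-30d-5p -0.45 (SE 0.24), miR-30e-5p -0.41 (SE 0.25) and miR-30c-5p -0.35 (SE 0.24), all with overlapping groups. In each of these 4 guides the lowest of the 6 libraries was APAP replicate 3, also the shallowest of them. Without it the median over the 5 guides moved from -0.41 to -0.14, and without APAP replicate 2 it moved to -0.62.

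The guide miR-30b-5p differed in sign. It measured 276, 171 and 297 CPM in Control and 397, 269 and 305 CPM in APAP. Its APAP mean was the higher, with overlapping groups and a log2 difference of 0.38 (SE 0.27, adjusted p = 0.621 by edgeR). It was the single member above 0.

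Among passengers, miR-30c-2-3p stood out by its tight Control values. It measured 185, 191 and 193 CPM in Control and 130, 157 and 117 CPM in APAP. Each APAP library lay below each Control library, as for 8.06% of all miRNAs, and it was the 1 member whose groups did not overlap. Its log2 difference was -0.49 (SE 0.19, unadjusted p = 0.0214, adjusted p = 0.351 by edgeR). The remaining passengers gave -0.47 for miR-30c-1-3p (SE 0.28), -0.33 for miR-30e-3p (SE 0.21), -0.16 for miR-30a-3p (SE 0.19) and -0.13 for miR-30d-3p (SE 0.25). The last 2 turn positive, to 0.08 and 0.14, when libraries are scaled to their totals. That scaling moved the median of all miRNAs up by 0.25, from -0.05 to 0.20, and the median of the members to -0.17.

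The second comparison asks what a prior dose of dmPGE2 changed under APAP. Again 0 of 10 members passed the test, with adjusted p from 0.703 to 0.994 (edgeR), and 0.278% of all miRNAs passed. DESeq2 and limma-voom also called 0. The arms lay on opposite sides of 0. All 5 guides had a log2 difference below 0, with a median of -0.16, and all 5 passengers had one above 0, with a median of 0.06. Over all miRNAs 50% lay below 0. The guide median was 0.00 without dmPGE2+APAP replicate 2, the shallowest library, and -0.01 without APAP replicate 2. It was -0.35 without dmPGE2+APAP replicate 1, -0.32 without APAP replicate 3 and -0.10 without dmPGE2+APAP replicate 3. With log2 total reads as a covariate the guide median was 0.04, and after thinning to equal depth -0.14. Under the covariate miR-30a-5p, miR-30c-5p and miR-30d-5p turned positive, while miR-30b-5p and miR-30e-5p stayed below 0. Of the passengers, miR-30c-1-3p turned to -0.08 without APAP replicate 1, miR-30c-2-3p to -0.07 after thinning to equal depth, and miR-30e-3p to -0.03 without dmPGE2+APAP replicate 3.

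The passenger miR-30d-3p was the member with an unadjusted p under 0.05. It measured 15.5, 18.9 and 17.0 CPM in APAP and 21.1, 27.3 and 27.0 CPM in dmPGE2+APAP. Each dmPGE2+APAP library lay above each APAP library, as for 5.83% of all miRNAs, and 2.5% were higher at an unadjusted p under 0.05. It had a log2 difference of 0.54 (SE 0.25, unadjusted p = 0.0496, adjusted p = 0.703 by edgeR). Its level is low, with 313 reads over the 3 dmPGE2+APAP libraries.

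The guide with the lowest value was miR-30b-5p, at 312, 158 and 194 CPM in dmPGE2+APAP against the APAP values above. Its groups overlapped and its log2 difference was -0.54 (SE 0.28, adjusted p = 0.703 by edgeR). The abundant guides were closer to 0: -0.16 for miR-30a-5p (95% interval -0.63 to 0.32), -0.15 for miR-30c-5p, -0.13 for miR-30d-5p and -0.31 for miR-30e-5p. Of these, miR-30a-5p measured 18665, 12627 and 14313 CPM in dmPGE2+APAP, within the range of APAP. The other 4 passengers lay between 0.02 and 0.17.

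The third comparison sets dmPGE2+APAP against Control, and shares its libraries with the other two. Here 0 of 10 members passed, with adjusted p from 0.277 to 0.994 (edgeR), and 0.278% of all miRNAs passed. DESeq2 and limma-voom also called 0. Members lay below 0 in 8 of 10 cases with a median of -0.44, against 53.9% and -0.03 over all miRNAs. The unadjusted p was under 0.05 for 4 members, all lower, whereas 5% of all miRNAs were lower at that p. The groups did not overlap, with dmPGE2+APAP the lower, for 4 members (miR-30a-5p, miR-30e-5p, miR-30c-1-3p and miR-30c-2-3p), against 8.61% of all miRNAs.

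The lowest adjusted p of the family belonged to miR-30e-5p. It measured 4291, 4413 and 3431 CPM in Control and 2996, 2040 and 2329 CPM in dmPGE2+APAP, so every Control library was the higher. The log2 difference was -0.72 (SE 0.25, 95% interval -1.25 to -0.19, adjusted p = 0.277 by edgeR). For miR-30a-5p it was -0.60 (SE 0.22) and for miR-30d-5p -0.57 (SE 0.24), both with an adjusted p of 0.336 by edgeR.

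In miR-30d-5p the groups overlapped: it measured 7178, 8813 and 9882 CPM in Control and 7366, 4973 and 5033 CPM in dmPGE2+APAP. In miR-30c-5p they overlapped too, at 1523, 1418 and 2102 CPM against 1484, 928 and 1128 CPM. Replicate 1, the deepest of the dmPGE2+APAP libraries, was the highest of its group for all 5 guides.

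The passenger miR-30c-2-3p measured 147, 124 and 147 CPM in dmPGE2+APAP, again below every Control library. Its log2 difference was -0.44 (SE 0.19, adjusted p = 0.399 by edgeR). The rarest member, miR-30c-1-3p, measured 11.6, 12.8 and 9.12 CPM in Control and 7.92, 8.52 and 8.18 CPM in dmPGE2+APAP, with a log2 difference of -0.45 (SE 0.29). The groups were separate, but the dmPGE2+APAP libraries held 106 reads of it in all.

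The passengers of miR-30a and miR-30d did not lie below Control. The miR-30a-3p level was 360, 310 and 372 CPM in Control and 313, 371 and 368 CPM in dmPGE2+APAP, with a log2 difference of 0.01 (SE 0.19, 95% interval -0.38 to 0.41). For miR-30d-3p, at 18.6, 22.1 and 15.6 CPM in Control, it was 0.41 (SE 0.25). The guides of the same hairpins stood on the other side of 0. Scaling to library totals moved the median of all miRNAs up by 0.22 and that of the members to -0.21, and turned miR-30b-5p from -0.16 to 0.03.

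**Figure D3:**
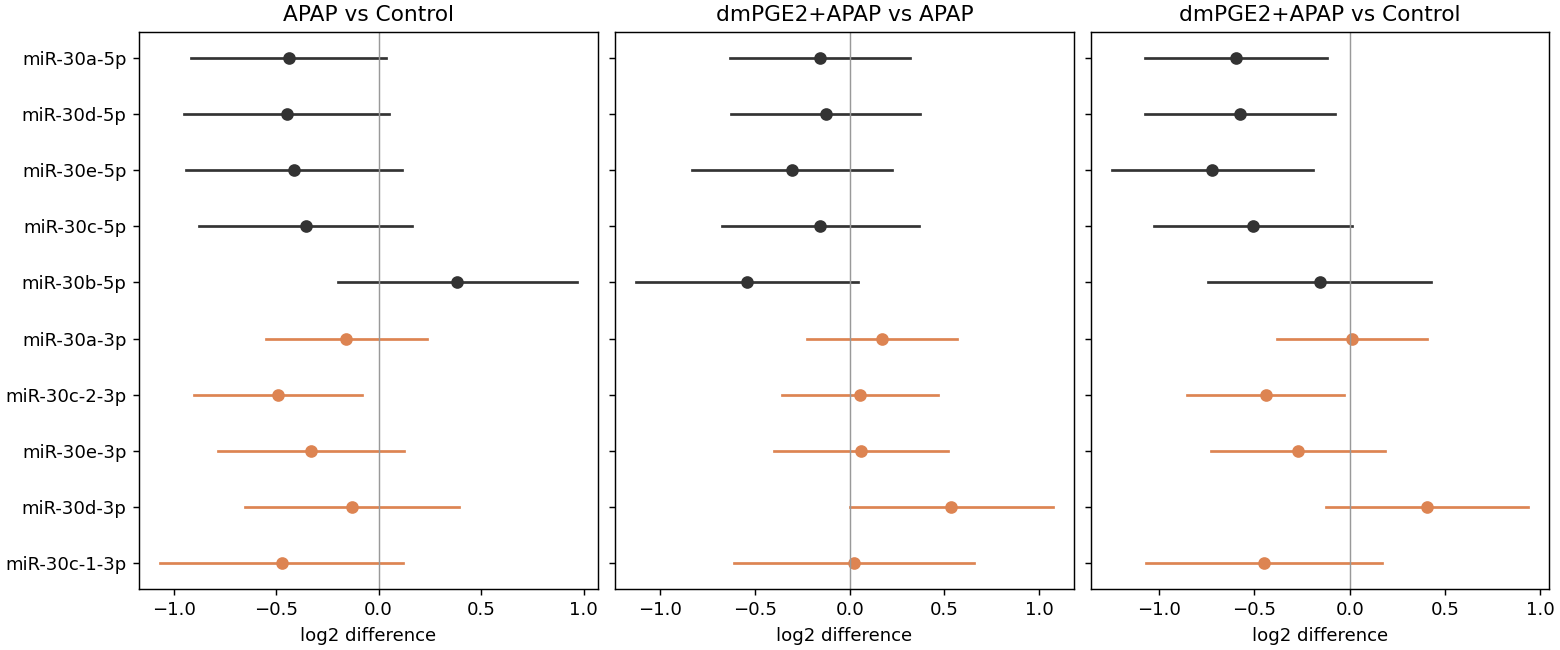
Log2 difference of each miR-30 member in the 3 comparisons (first group minus second), with its 95% interval from the edgeR fit. Black marks guides, orange passengers, and the vertical line is 0. In dmPGE2+APAP against Control the 5 guides lie between -0.72 and -0.16 and the passengers of miR-30a and miR-30d at 0.01 and 0.41.

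Since guide and passenger come from 1 duplex, the ratio of 5p to 3p reads within a library needs no scaling between libraries. The 5p arm was the more abundant in 9 of 9 libraries in all 5 ratios, so the label of 5p as the guide arm held in every library. For miR-30c this holds for the shared 5p reads, not for either hairpin alone. Of the 113 hairpins with both arms tested, 62.8% had more 5p than 3p on average. The mean ratio was 360 ± 139 for miR-30d (SD, n = 9), 156 ± 46.4 for miR-30c-5p over miR-30c-1-3p, 55.0 ± 14.4 for miR-30a, 29.6 ± 10.1 for miR-30e and 8.97 ± 1.58 for miR-30c-5p over miR-30c-2-3p. The 2 ratios of miR-30c use the same 5p reads, so they differ only through the levels of the 2 passengers. How much passenger each hairpin keeps beside its own guide cannot be read from them.

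The arm ratio was compared between groups with a model of arm and group fitted to 113 hairpins. In APAP against Control 0 of 5 miR-30 hairpins passed (lowest unadjusted p 0.303, adjusted p from 0.707 to 0.896 by edgeR), and 0.885% of all hairpins passed. Below 0 lay 3 of 5, against 53.1% of hairpins. In dmPGE2+APAP against APAP 0 of 5 passed (lowest unadjusted p 0.0736, adjusted p = 0.965 for each by edgeR), as did 0% of all. All 5 lay below 0 there, against 60.2% of hairpins.

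In dmPGE2+APAP against Control 0 of 5 passed, with 1 at an unadjusted p under 0.05, and 0% of all hairpins passed, with 7.08% lower at that p. All 5 lay below 0, with a median log2 difference of -0.47, against 67.3% and -0.17 over all hairpins. The log2-ratio tests in limma also called 0 of 5.

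The hairpin with the largest difference was miR-30d. Control replicates 1, 2 and 3 gave 385, 398 and 635 5p reads per 3p read. The APAP libraries gave 405, 429 and 268, and those of dmPGE2+APAP 350, 182 and 187. Every dmPGE2+APAP library lay below every Control library, as for 15.9% of hairpins, with a log2 difference of -0.98 (SE 0.33, unadjusted p = 0.00926, adjusted p = 0.173 by edgeR).

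For miR-30a the Control ratios were 60.9, 68.9 and 68.8, those under APAP 59.0, 68.3 and 37.0, and those under dmPGE2+APAP 59.6, 34.1 and 38.9. The dmPGE2+APAP libraries again all lay below Control, with a log2 difference of -0.62 (SE 0.31, adjusted p = 0.410 by edgeR). For miR-30e the Control ratios were 30.4, 47.2 and 24.1, those under APAP 36.9, 38.1 and 17.4, and those under dmPGE2+APAP 32.9, 19.6 and 19.9, with overlapping groups and a log2 difference of -0.47 (SE 0.35). Both ratios of miR-30c-5p overlapped between these groups, with log2 differences of -0.01 (against miR-30c-1-3p) and -0.06 (against miR-30c-2-3p).

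Sequencing depth moved with these values. For miR-30a, miR-30d and miR-30e the 3 lowest ratios were those of the 3 shallowest libraries, 1 of APAP and 2 of dmPGE2+APAP. For miR-30a they were 34.1 to 38.9, and the other 6 libraries held 59.0 to 68.9. The ratio of the shallowest library, 34.1, had an exact 95% interval of 31.0 to 37.6, which covers counting error only, since PCR copies are not independent molecules. The pattern was noticed after the values were seen. It held for 9 of the 113 hairpins (7.96%), of which 6 are not of miR-30. A lower mean log2 ratio in the 3 shallowest libraries was common, found in 68.1% of all hairpins. The median shift was -0.24 over all hairpins and -0.81 over the 5 of miR-30. The shift of miR-30d, -1.03, ranked 10 from the lowest.

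Of the 5 guides, 4 followed the same libraries and miR-30b-5p did not. The passenger miR-30c-2-3p followed them in part, with its lowest levels in APAP replicate 3 (117 CPM) and dmPGE2+APAP replicate 2 (124 CPM). The 3 lowest levels of miR-30a-5p, miR-30c-5p, miR-30d-5p and miR-30e-5p all fell in the 3 shallowest libraries, which was so for 9.17% of all miRNAs tested and for 0 of 5 passengers. With log2 total reads as a covariate, the dmPGE2+APAP against Control difference in ratio was -0.52 for miR-30d, -0.15 for miR-30a and -0.01 for miR-30e. After thinning every library to equal depth it was -0.97, -0.59 and -0.53. The guide median of that comparison was -0.57, -0.22 with the covariate and -0.57 after thinning. Every Control library (7590735 reads or more) was deeper than every library of the treated groups (7563788 reads or fewer), so depth and treatment cannot be told apart in either comparison with Control.

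**Figure D4:**
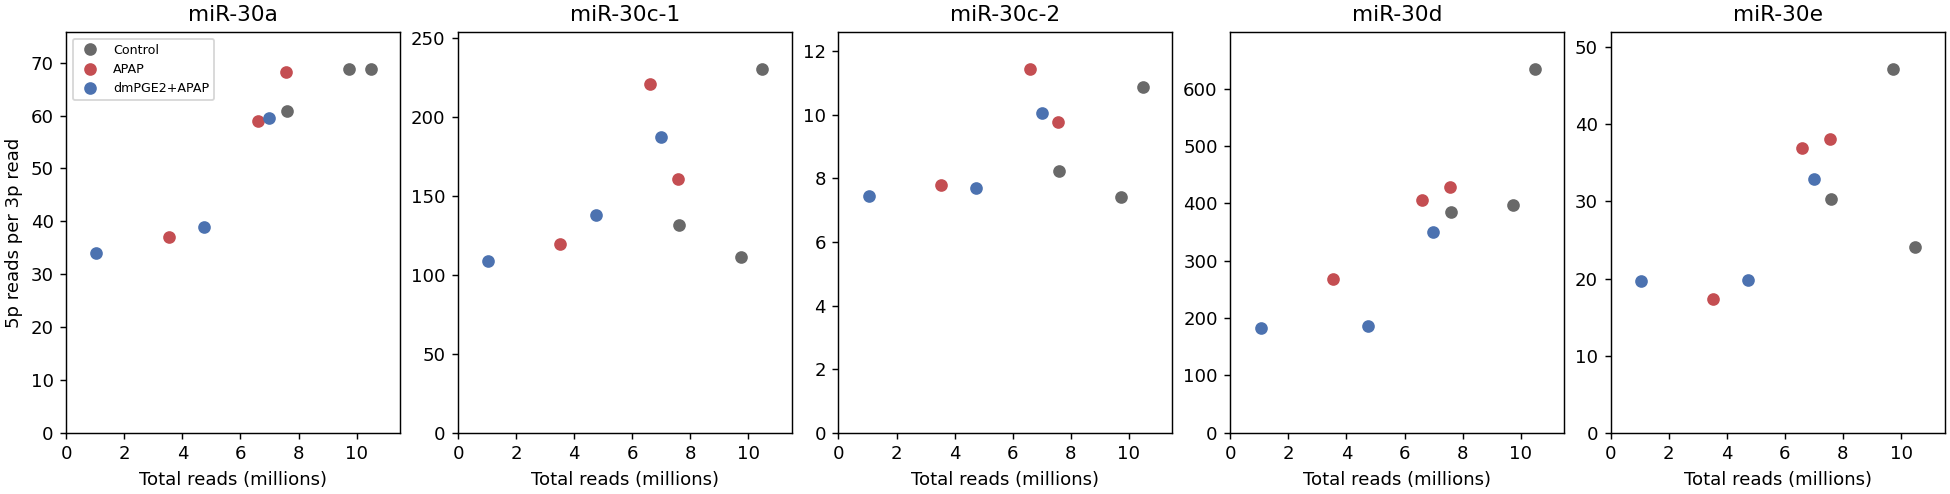
Reads of the 5p arm per read of the 3p arm for each miR-30 hairpin, against the total reads of the library. Points are single libraries (grey Control, red APAP, blue dmPGE2+APAP). For miR-30a, miR-30d and miR-30e the 3 shallowest libraries (1038799 to 4733882 reads) have the lowest ratios. For both miR-30c hairpins they are lower on average but overlap with deeper libraries. The mean log2 shift there is -0.49 for miR-30c-1 and -0.32 for miR-30c-2.

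Members also differed in how they varied together. Over the 9 libraries the log2 level of miR-30a-5p had a Pearson r of 0.97 with miR-30d-5p, 0.95 with miR-30c-5p and 0.90 with miR-30e-5p, but 0.25 with miR-30b-5p. Its own passenger, miR-30a-3p, gave -0.10. That passenger was closest to miR-30e-3p (0.80), the near-identical partner. The passenger miR-30c-2-3p gave 0.89 with miR-30a-5p, 0.86 with miR-30d-5p and 0.82 with miR-30e-5p, but 0.17 with miR-30a-3p. These values are descriptions over libraries that share scaling and differ in depth.

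Outside the family, the miRNAs most like miR-30a-5p among the 79 with a mean of at least 100 CPM were miR-107-3p (r = 0.95), miR-455-5p (0.93), let-7f-5p (0.90), miR-10a-5p (0.85) and let-7a-5p (0.85), over the same 9 libraries. None passed the test in any of the 3 comparisons: in dmPGE2+APAP against Control, miR-455-5p gave a log2 difference of -0.62 and miR-107-3p one of -0.49, both with an adjusted p of 0.336 by edgeR.

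A list of 12 other liver-enriched miRNAs gives the setting. In APAP against Control 0 of 12 passed the test, with a median log2 difference of -0.07. In dmPGE2+APAP against APAP and against Control 0 of 12 passed either, with medians of -0.06 and -0.16. Below 0 lay 7 of the 12 in APAP against Control and 10 in dmPGE2+APAP against Control. The most abundant, miR-122-5p, gave -0.34 (SE 0.23) in APAP against Control and -0.25 (SE 0.23) in dmPGE2+APAP against Control. Next in abundance, miR-148a-3p gave -0.41 (SE 0.21) and -0.49 (SE 0.21, adjusted p = 0.348 by edgeR), values near those of the abundant guides. Its dmPGE2+APAP libraries all lay below Control, as for 8.61% of all miRNAs.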

How the data were processed

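Small RNA was measured in 9 liver libraries. The values used are the deposited counts, whole reads per mature miRNA per the file headers. Per the submitters' processing notes the aligner was Bowtie and the build mm10. No source used here names the counting tool, the annotation or the strand setting. Columns with a prefix found in no label were taken as Control, since the other groups matched by name, and 9 value columns were not used. The labels do not tie libraries to animals, so a p-value reflects only how far these libraries spread, possibly for technical reasons.

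The main test was edgeR 4.0.16 in R 4.3.3 (TMM scaling, filterByExpr with a minimum count of 10 and total of 15, robust quasi-likelihood test, 9 libraries in 1 fit, Benjamini-Hochberg over 360 miRNAs, threshold 0.05). Arm ratios were tested over 113 hairpins with both arms counted, with library as a block and an arm-by-group term. Alternatives used limma 3.58.1 and DESeq2 1.42.0. The depth covariate and thinning were chosen after seeing the data. Scripts were tested on simulated data. Named miRNAs are all members, their seed relatives, the 5 miRNAs most correlated with miR-30a-5p, and the 2 most abundant of a liver list. The members and lists were chosen with earlier results of these data known.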

Additional observations from a re-analysis of the deposited data

How the results depend on the processing

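Under 804 alternatives to 45 member and hairpin results, 0 passed the test and 39 had the opposite sign, 25 of them for member levels and 14 for arm ratios. Scaling to library totals turned miR-30a-3p and miR-30d-3p in APAP against Control and miR-30b-5p in dmPGE2+APAP against Control. All other sign changes came from leaving out a library, the depth covariate, thinning or no filter. The counts over all miRNAs were less stable. In APAP against Control 3 passed: 8 with library totals, 7 with RLE size factors, 13 with DESeq2, 9 with no filter, 0 with a mean of at least 10 CPM, 7 with the 2 groups only, and 0 with the depth covariate or thinning. In dmPGE2+APAP against APAP 1 passed: 8 with DESeq2, 9 with no filter, and 0 with the 2 groups only or the covariate. In dmPGE2+APAP against Control 1 passed: 2 with library totals, RLE, DESeq2 or no filter, and 0 with at least 10 CPM, the covariate or thinning. Leaving out 1 library gave 0 to 9, 0 to 5 and 1 to 2. For arm ratios in APAP against Control 1 hairpin passed, against 0 with limma, with 5 reads added or with the covariate, and 0 to 2 without 1 library. The cause of these moves was not tested.

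Summed guides averaged 37570 CPM (Control), 27934 (APAP) and 24848 (dmPGE2+APAP). Scaled to library totals, these means became 33919, 29259 and 26116 CPM. Without 1 library the TMM-scaled means ran over 35034 to 39015, 24406 to 31270 and 21957 to 27275 CPM. These are ranges of means. Single APAP libraries (19800 to 35197 CPM) overlapped with Control (35187 to 41351), whereas those of dmPGE2+APAP (20725 to 30823) lay below Control. Summed passengers averaged 693 CPM (Control), 572 (APAP) and 628 (dmPGE2+APAP). Scaled to library totals, the means were 626, 610 and 665 CPM, so dmPGE2+APAP was then the highest. Without 1 library the TMM-scaled means ran over 662 to 737, 555 to 587 and 613 to 664 CPM. Single dmPGE2+APAP libraries (581 to 667 CPM) overlapped with Control (630 to 733), while those of APAP (536 to 601) lay below Control.

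Same-numbered libraries did not visibly deviate together (correlations from -0.25 to 0.14, against -0.265 to 0.166 for other pairs). In dmPGE2+APAP against Control the same-numbered pairs (-0.25 to -0.15) all lay below the others (-0.01 to 0.16). In dmPGE2+APAP against APAP they ran from -0.10 to 0.14, within the range of the others. With 3 libraries a group these correlations cannot exclude a pairing by number, and none was assumed in the main test. With the replicate block 0 miRNAs passed in APAP against Control, 2 in dmPGE2+APAP against APAP, and 0 members in any comparison. With the block the limma test of arm ratios called 0 hairpins in APAP against Control and 1 in dmPGE2+APAP against Control, not of miR-30.

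The planned limma test on log2(TPM + 1) was not run, since the columns of these values were not used. The rarest member, miR-30c-1-3p, held 527 reads in all 9 libraries.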

Other observations

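The hairpin of miR-30f lies opposite Mir30e, on the plus strand of the same stretch of chromosome 4. The mature miR-30f (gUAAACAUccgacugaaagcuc) carries the miR-30 guide seed shifted by 1 base. It averaged 42.8 ± 8.94 CPM (SD, n = 9) and gave a log2 difference of 0.40 (SE 0.25, adjusted p = 0.584 by edgeR) in APAP against Control. Set against miR-30e-3p, its ratio of reads was 0.262 to 0.292 in Control, while the APAP libraries held 0.400 to 0.517 and those of dmPGE2+APAP 0.387 to 0.516. Both treated groups thus lay above Control without overlap, while the levels of miR-30f and of miR-30e-3p each overlapped with Control. The share of other ratios that separate these groups was not counted. Every Control library was also deeper than every treated library, so depth and treatment cannot be told apart here. The ratio was chosen after its values were seen and was not tested, and without a stated strand setting reads of the opposite strands cannot be told apart.

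The passenger of miR-30b, miR-30b-3p, which is not among the 10 rows above, averaged 22.2 ± 3.62 CPM (SD, n = 9). Its level in APAP lay below Control without overlap, at 18.8 ± 1.55 against 24.9 ± 4.01 CPM (SD, n = 3 each), with a log2 difference of -0.41 (SE 0.23, adjusted p = 0.546 by edgeR), and 8.06% of all miRNAs were lower without overlap. In dmPGE2+APAP it lay above APAP without overlap, as for 5.83% of all miRNAs, with a log2 difference of 0.27 (SE 0.24, adjusted p = 0.896 by edgeR). The ratio of miR-30b-5p to miR-30b-3p reads was 6.51 to 14.5 in Control and 13.5 to 20.4 in APAP, a log2 difference of 0.80 (SE 0.38, adjusted p = 0.560 by edgeR). The log2 difference of that ratio was -0.81 (SE 0.39, adjusted p = 0.965 by edgeR) in dmPGE2+APAP against APAP and -0.01 (SE 0.39) in dmPGE2+APAP against Control.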
